A study of Procotyla fluviatilis with 12 samples.

Results

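Wound-site tissue of the regenerating and the non-regenerating body region of the freshwater planarian *Procotyla fluviatilis* was compared 24 hours after amputation, using the 6 libraries titled Reg+ amputated (3) and Reg- amputated (3) of the 12 in the series. Reg+ amputated worms were cut anterior to the pharynx, where the labels call regeneration proficient, and Reg- amputated worms posterior to it, where they call it deficient. The tissue lay just behind the cut, each library came from a pool of 3 field-collected adult worms, and no strain or genotype is named. The other 6 libraries, Reg+ uncut and Reg- uncut (3 each, the Reg- ones numbered 1, 3 and 4), came from the matching places of intact worms and serve here as libraries outside the comparison. Nothing in the labels says whether pools came from separate collections, and p-values reflect only how these pools vary, which may be technical.

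Planarians regrow lost parts from neoblasts, dividing stem cells spread through the body, which gather near a wound and form a blastema. Whether a wound makes a head or a tail depends in planarians on Wnt/beta-catenin signalling, which promotes tail identity and must be low for a head to form. In *P. fluviatilis* a cut in front of the pharynx is followed by a new head, while a cut behind it leaves the body without one. The comparison asks how transcripts at a healing wound differ between these regions. The expression files list contigs of a de novo assembly with no gene names, so no contig is tied to a gene or pathway, no tissue marker could be checked, and neoblast, wound or Wnt genes are not identified here.

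Total reads ran from 24370500 to 31266924 in the Reg+ amputated libraries and from 26860786 to 30870592 in the Reg- amputated libraries. Contigs with at least 10 reads in 3 or more of the 6 libraries were tested, 57624 of 149594, and they held 99.0% to 99.5% of each amputated library's reads. Tested contigs had a median length of 602 nt. Of the 100 contigs with the highest mean level, 1 differed between the regions, near the 1.5% of all tested contigs, so nothing is read from it. The most abundant contig (1572 nt) took 5.68%, 6.14% and 4.77% of reads in Reg+ amputated libraries, against 4.26%, 3.42% and 3.24% in Reg- amputated libraries. These values did not overlap, but the adjusted p was 0.29 (edgeR quasi-likelihood test, log2 fold change 0.67, SE 0.22).

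The Reg+ amputated libraries resembled one another, and the Reg- amputated libraries did not to the same degree. Among contigs averaging at least 1 CPM (reads of a contig scaled to a fixed library total) over a pair of libraries, 0.444% to 0.92% were at least 4-fold apart within Reg+ amputated. Within Reg- amputated the share was 2.02% for replicates 1 and 2, 1.6% for replicates 2 and 3, and 12.4% for replicates 1 and 3. The difference between replicates 3 and 1 ran mostly one way, with 4951 contigs at least 4-fold higher in replicate 3 and 214 at least 4-fold higher in replicate 1. Replicate 1 was also the library farther from the other region: 9.86% to 11.8% of contigs were at least 4-fold apart between it and a Reg+ amputated library, compared with 2.5% to 3.75% for replicates 2 and 3. The 4951 contigs, chosen by that difference, had a median of 3.28 to 4.57 CPM in Reg+ amputated libraries. In Reg- amputated replicates 1, 2 and 3 their median was 0.763, 2.35 and 7.22 CPM. The choice sets replicates 1 and 3 apart and makes values between them likely for any other library, so these levels are a description only. In the uncut libraries, which had no part in choosing them, the 4951 contigs had a median of 1.72, 1.27 and 3.72 CPM in Reg+ uncut and 2.45, 4.5 and 3.52 CPM in Reg- uncut.

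The amputated libraries resembled the uncut libraries of the opposite region label more than those of their own. Each Reg+ amputated library had a mean Spearman correlation of 0.886 to 0.901 with Reg+ uncut libraries and of 0.956 to 0.963 with Reg- uncut libraries, over the tested contigs. The Reg- amputated libraries correlated at 0.919 to 0.963 with Reg+ uncut and at 0.883 to 0.922 with Reg- uncut libraries. For replicate 3 of Reg- amputated these values were 0.919 and 0.917, close to equal. An exchange of labels between groups and an effect of amputation on the profiles cannot be told apart in this design, and directions below hold as labelled.

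Between the amputated regions, 864 contigs differed, 253 with more reads in Reg+ and 611 with more in Reg- (edgeR quasi-likelihood test, Benjamini-Hochberg adjusted p under 0.05). This is 1.5% of tested contigs in all, 0.439% in the Reg+ direction and 1.06% in the Reg- direction. In bulk tissue, a change in the number of cells of a type and a change of RNA per cell cannot be told apart. The 253 contigs differed by a log2 fold change of 3.03 at the median, and 93 of them at least 16-fold. The 611 contigs differed by -6.17 at the median, and 413 of them at least 16-fold, so that the called differences were larger as well as more numerous in the Reg- direction. Of all tested contigs 1.09% differed at least 16-fold. At an unadjusted p under 0.05 there were 7045 contigs, 2644 higher in Reg+ and 4401 higher in Reg-. The median log2 fold change over all tested contigs was 0.0056.

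The contigs higher in Reg+ took 1.13%, 1.46% and 1.13% of all reads in Reg+ amputated libraries and 0.222%, 0.251% and 0.245% in Reg- amputated libraries. Library medians of these contigs averaged 12.5 ± 1.84 CPM for Reg+ amputated, against 0.998 ± 0.251 CPM for Reg- amputated tissue (SD, n = 3 each). At the median such a contig was low but measurable in Reg- wounds. Those higher in Reg- took 0.128%, 0.124% and 0.136% of reads in Reg+ amputated libraries and 1.02%, 1.97% and 1.87% in Reg- amputated libraries. Here the library medians averaged 0.154 ± 0.028 CPM for Reg+ amputated, against 9.23 ± 3.18 CPM for Reg- amputated tissue (SD, n = 3 each), so at the median only a few reads per library came from Reg+ wounds. Groups did not overlap in CPM for any of the 864, where 20.7% of all tested contigs had groups that did not overlap, 6.85% higher in Reg+ and 13.8% higher in Reg-. These levels describe contigs that the test chose and add no support to it.

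Called contigs were shorter at the median than tested contigs as a whole, a description with no test. Those higher in Reg+ had a median length of 483 nt and those higher in Reg- of 424 nt, against 602 nt for all tested contigs. Among contigs of 200 to 300 nt 2.07% were called, and among those of 2000 nt or more 0.926%. By level, 0.662% of contigs under 1 CPM were called and 2.44% of those at 30 to 100 CPM. Few called contigs had many reads shared with other contigs: 11 of 253 and 17 of 611 had under 90% uniquely assigned reads, 4.35% and 2.78%, against 5.4% of all tested contigs.

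Complete absence was one-sided. Of the tested contigs, 88 had at least 10 reads in each Reg- amputated library and no read in any Reg+ amputated library, while 4 showed the reverse. The 88 contigs had a median length of 315 nt. Of these, 39 passed the test, as did 3 of the 4, against 1.06% and 0.439% of all tested contigs in those directions, but the same libraries chose them and nothing is read from these counts. Counting up to 2 reads per library as absent gave 25 contigs present in Reg+ alone and 261 present in Reg- alone. Without Reg- amputated replicate 3, 7 were present in Reg+ alone and 88 in Reg- alone. With at least 50 reads required as present, 0 were present in Reg+ alone and 18 in Reg- alone. In libraries outside this choice, 81 of the 88 had at least 10 reads in each Reg+ uncut library. For Reg- uncut tissue, 84 of the 88 had at most 2 reads per library. With the limits the other way round, 0 of the 88 reached 10 reads in every Reg- uncut library. Only 2 stayed within 2 reads in every Reg+ uncut library. Shares over all tested contigs were not computed for these limits. Between 54254 and 57467 contigs reached 10 reads in single Reg+ uncut libraries, and the 88 passed the filter only through the Reg- amputated libraries. Nothing is therefore read from the counts of 81, 84, 0 and 2.

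In each direction, 2 contigs are named by rule, the one with the largest fold change and the one with the highest RPKM (reads scaled to contig length and library total). In the Reg+ direction, contig109086 (442 nt) had 1304, 525 and 437 reads in the Reg+ amputated libraries and 2, 0 and 0 reads in the Reg- amputated libraries. Nearly all of its reads in amputated tissue were in Reg+, in a ratio of 1190 (log2 fold change 9.98, adjusted p 0.00252 by edgeR). The 95% exact (Clopper-Pearson) interval of this ratio, from 329 to 9834, covers counting error only. Both Reg- reads came from replicate 1, and without that library the fitted log2 fold change was 12.58, a value with no read in Reg- that depends on the prior count (adjusted p 0.00278 by edgeR). In the uncut libraries it averaged 0.0697 ± 0.0681 CPM for Reg+, against 16.1 ± 9.25 CPM for Reg- (SD, n = 3 each).

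The most abundant contig per length among those higher in Reg+, contig147544 (725 nt), stood at 1763, 2257 and 1804 RPKM in Reg+ amputated libraries and at 352, 351 and 309 RPKM in Reg- amputated libraries. Every Reg+ amputated value was above every Reg- amputated value, which the rule for naming the contig required. Its log2 fold change was 2.59 (SE 0.20, adjusted p 0.00208 by edgeR). In CPM it averaged 236 ± 18.7 for Reg+ uncut, against 1725 ± 209 for Reg- uncut tissue, so that Reg+ amputated tissue (1408 ± 199 CPM) was near Reg- uncut and Reg- amputated tissue (245 ± 17.7 CPM) near Reg+ uncut (SD, n = 3 each).

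In the Reg- direction, contig104408 (211 nt) had 0, 0 and 0 reads in the Reg+ amputated libraries and 258, 450 and 303 reads in the Reg- amputated libraries. It was at least 321-fold lower in Reg+, taking 3 reads over the group as the limit (adjusted p 0.00668 by edgeR). Reads in uncut tissue numbered 406, 680 and 161 in Reg+ and 0, 4 and 1 in Reg-. By RPKM the most abundant contig higher in Reg- was contig148685 (370 nt), with 50.05, 60.2 and 39.2 RPKM in Reg+ amputated and 958, 1963 and 1382 RPKM in Reg- amputated libraries. Its log2 fold change was -4.79 (SE 0.37, adjusted p 0.00223 by edgeR), and it averaged 849 ± 306 CPM for Reg+ uncut, against 19.5 ± 0.78 CPM for Reg- uncut tissue (SD, n = 3 each). Each of the 4 contigs was therefore high in amputated tissue of one region and in uncut tissue of the other.

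**Figure D1:**
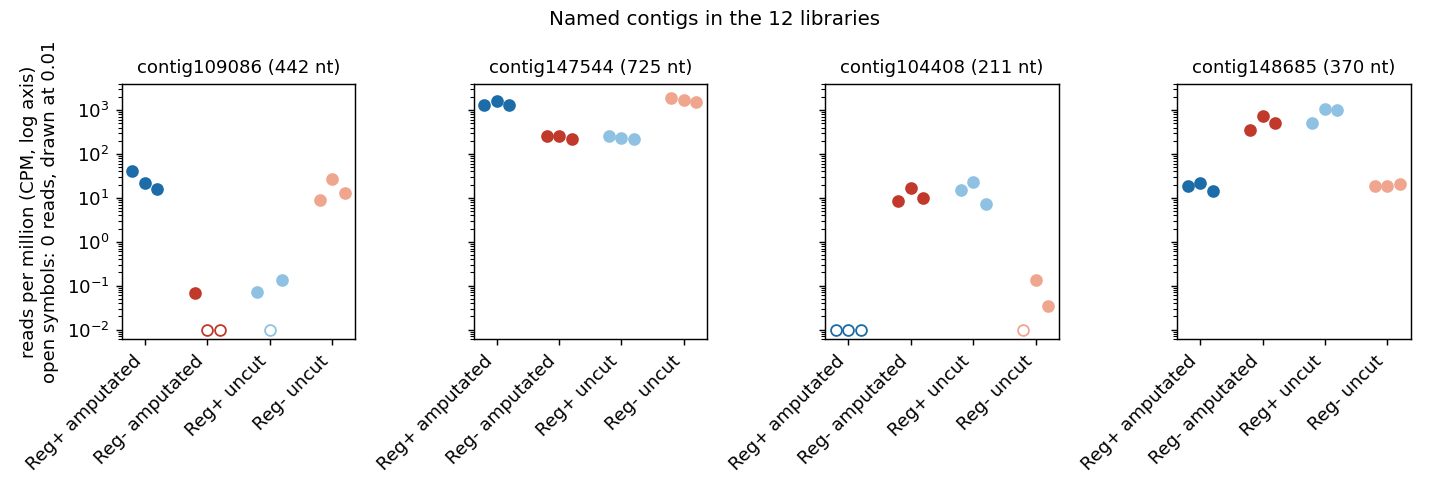
CPM (log axis) of the 4 named contigs in each of the 12 libraries, by group, with open symbols for libraries without a read, drawn at 0.01. For contig109086 and contig147544 the Reg+ amputated and Reg- uncut libraries are high, and for contig104408 and contig148685 the Reg- amputated and Reg+ uncut libraries.

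Without Reg- amputated replicate 3 the comparison gave 1704 contigs, 2.96% of those tested, 867 of them (1.5%) with more reads in Reg+ and 837 (1.45%) with more in Reg-. The share higher in Reg+ thus stood at 50.9%, compared with 29.3% with all 6 libraries. It was 27.4%, 26% and 25.4% when Reg+ amputated replicate 1, 2 or 3 was left out as well, and 77.8% when Reg- amputated replicate 2 was. The 4 named contigs kept their calls, with log2 fold changes of 9.35 for contig109086 (adjusted p 0.00427 by edgeR), 2.44 for contig147544 (0.00262), -11.49 for contig104408 (0.00757) and -4.89 for contig148685 (0.002). Leaving out another library instead gave 381, 343 and 478 contigs for Reg+ amputated replicates 1, 2 and 3, 1117 for Reg- amputated replicate 1 and 514 for Reg- amputated replicate 2. With 5 libraries, the count of 1704 itself stood at 419, 346 and 516 when Reg+ amputated replicate 1, 2 or 3 was left out too, at 2624 when Reg- amputated replicate 1 was left out too and at 8845 for Reg- amputated replicate 2.

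**Figure D2:**
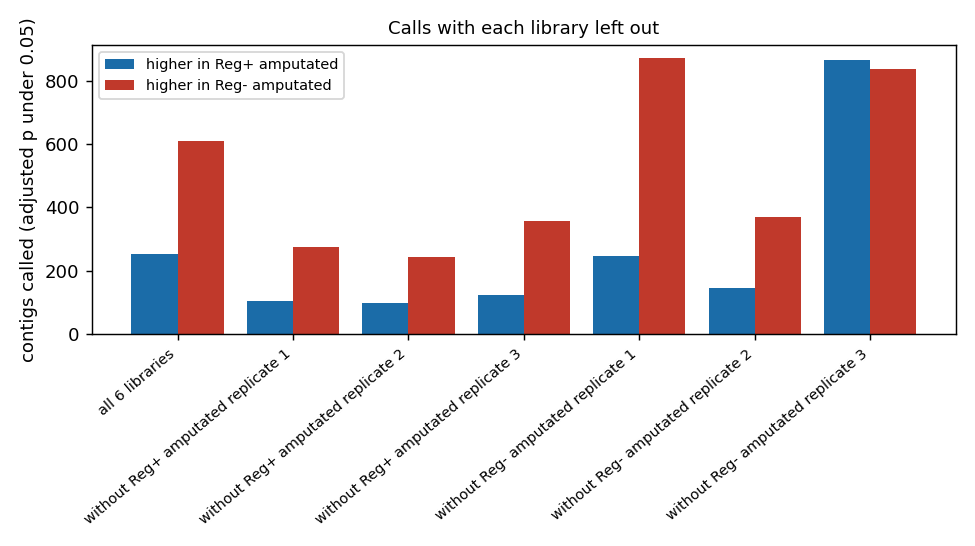
Number of contigs called higher in Reg+ amputated (blue) and higher in Reg- amputated tissue (red) with all 6 libraries and with each library left out in turn. Leaving out Reg- amputated replicate 3 raises the Reg+ side to 867, while leaving out Reg- amputated replicate 1 raises the Reg- side to 871.

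Most contigs called with all 6 libraries were called in the same direction without replicate 3, namely 228 of 253 and 599 of 611. What leaving it out added was 639 contigs higher in Reg+ and 238 higher in Reg-. The 639 contigs had a median level of 5.25, 4.31 and 4.96 CPM in the Reg+ amputated libraries and 0.896, 1.53 and 5.51 CPM in Reg- amputated replicates 1, 2 and 3. These contigs lost their call when replicate 3 was added, so its level near Reg+ follows from how they were chosen. All 867 contigs called higher in Reg+ without replicate 3 came from a fit that did not use it. Its reads did count in the filter of tested contigs, so the choice was not fully free of it. Over these 867, replicate 3 was at or above the lowest Reg+ amputated library for 474 (54.7%). It was within or below the range of replicates 1 and 2 for 189 (21.8%) and between for 204 (23.5%). Over the 837 called higher in Reg-, it was at or below the highest Reg+ amputated library for 34 (4.06%) and within or above the range of replicates 1 and 2 for 507 (60.6%). The 238 contigs had a median of 4.48, 4.25 and 4.79 CPM in Reg+ amputated libraries and 10.7, 11.8 and 8.52 CPM in Reg- amputated replicates 1, 2 and 3. The added contigs had a median log2 fold change in the 5-library fit of 1.95 and -1.25, against 2.99 and -6.05 for contigs called both ways, sets that the values of replicate 3 helped to separate.

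**Figure D3:**
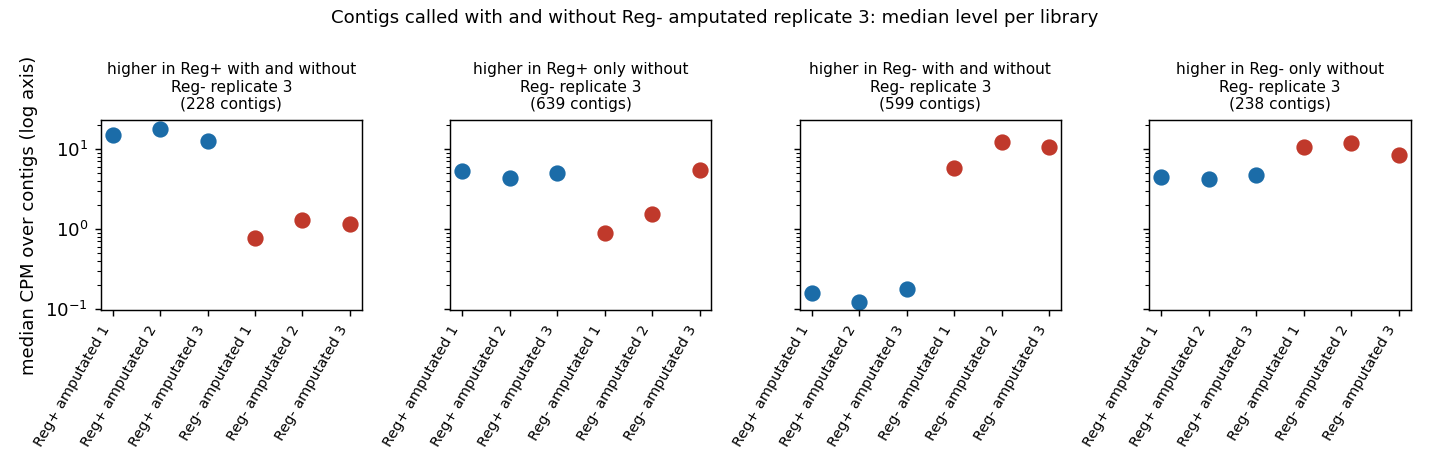
Median CPM (log axis) per amputated library for contigs called with and without Reg- amputated replicate 3 and for those called only without it, by direction. The level of replicate 3 (5.51 CPM for the 639 contigs, 1.15 CPM for the 228) helped to sort contigs into these sets, so its place in each panel describes the choice.

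Each amputated library was then placed between the groups using contigs called in a fit without it, though the filter of tested contigs used it. On the scale, 0 is the mean level of the remaining Reg- amputated libraries and 1 that of the remaining Reg+ amputated libraries (log2 CPM). Over contigs higher in Reg+ the median place was 0.929, 1.10 and 0.913 for the Reg+ amputated libraries and -0.096, 0.166 and 0.968 for Reg- amputated replicates 1, 2 and 3. Replicate 3 was nearer to Reg+ for 69.6% of 867 such contigs, and for 56.4% of the 280 with at least 10 CPM on average. Over contigs higher in Reg- the median place was 1.004, 1 and 0.948 for the Reg+ amputated libraries and 0.24, -0.127 and 0.036 for Reg- amputated replicates 1, 2 and 3. Here replicate 3 was nearer to Reg+ for 11.5% of 837 contigs. Replicate 3 thus lay near Reg+ for contigs higher in Reg+ and near 0 for those higher in Reg-, where replicate 1 was the farthest of its group from 0. These places rest on different contigs for each library. The lists for replicates 1 and 2 (246 and 145 contigs higher in Reg+) were called with replicate 3 in the group, which limits contigs where it is high. The places therefore cannot show which of the Reg- amputated replicates stands apart, and this was not tested.

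The 6 uncut libraries were placed on the same scale with the 864 contigs. The Reg+ uncut libraries lay at -0.025, -0.049 and 0.065 over contigs higher in Reg+ amputated tissue and at 0.034, -0.158 and -0.159 over those higher in Reg- amputated tissue. The Reg- uncut libraries lay at 0.994, 1.08 and 1.01 over contigs higher in Reg+ amputated tissue and at 0.975, 0.984 and 1.03 over the others. Every Reg+ uncut library was thus at the level of Reg- amputated tissue, and every Reg- uncut library at that of Reg+ amputated tissue, in both directions.

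**Figure D4:**
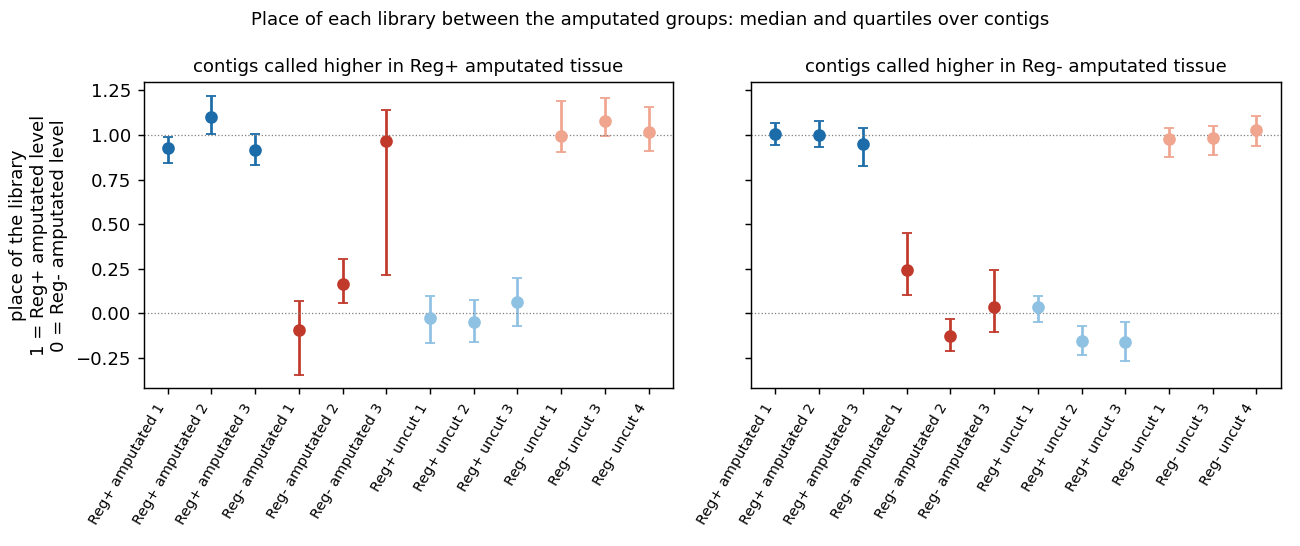
Place of each library between the Reg- amputated level (0) and the Reg+ amputated level (1), as median and quartiles over called contigs, with each amputated library left out of the fit that chose its contigs. Reg- amputated replicate 3 has a median of 0.968 over contigs higher in Reg+ and of 0.036 over those higher in Reg-.

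The regional difference was tested in the uncut libraries on their own, a fit that shares no library with the amputated comparison. There 1972 contigs differed (3.42% of 57622 tested), 1111 higher in Reg+ uncut (1.93%) and 861 higher in Reg- uncut (1.49%) by the same edgeR test. Of the 253 contigs higher in Reg+ amputated tissue, 233 (92.1%) were called lower in Reg+ uncut than in Reg- uncut and none was called higher. Of the 611 lower in Reg+ amputated tissue, 566 (92.6%) were called higher in Reg+ uncut and none lower. These 799 contigs were 92.5% of the amputated list and 40.5% of the uncut list. Of the amputated list without Reg- amputated replicate 3, 54% were called in the opposite direction in uncut tissue, 262 of 867 (30.2%) on the Reg+ side and 659 of 837 (78.7%) on the Reg- side. The share of the amputated list was 67% with DESeq2 and 59.9% in one fit of all 12 libraries. Over all 57622 contigs the amputated and uncut log2 fold changes correlated at -0.827 (Pearson) and -0.556 (Spearman), a description across contigs, which are not independent, and 69.5% had opposite signs. The interaction of region and amputation, fitted on all 12 libraries, was called for 246 of the 253 and 605 of the 611. Among all tested contigs it was called for 8.03%, with a greater Reg+ over Reg- ratio in amputated tissue for 3.17% and a smaller one for 4.87%, and since it shares the amputated libraries with the call, nothing is read from the members' count. The uncut count was 5343 (29.2% higher in Reg+, against 56.3% with all 6) without Reg+ uncut replicate 3, 1231 without Reg- uncut replicate 3 and 1256 without Reg- uncut replicate 4. The count of contigs called in opposite directions was 374, 339 and 414 when Reg+ amputated replicate 1, 2 or 3 was left out, 498 for Reg- amputated replicate 2 and 921 for Reg- amputated replicate 3.

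**Figure D5:**
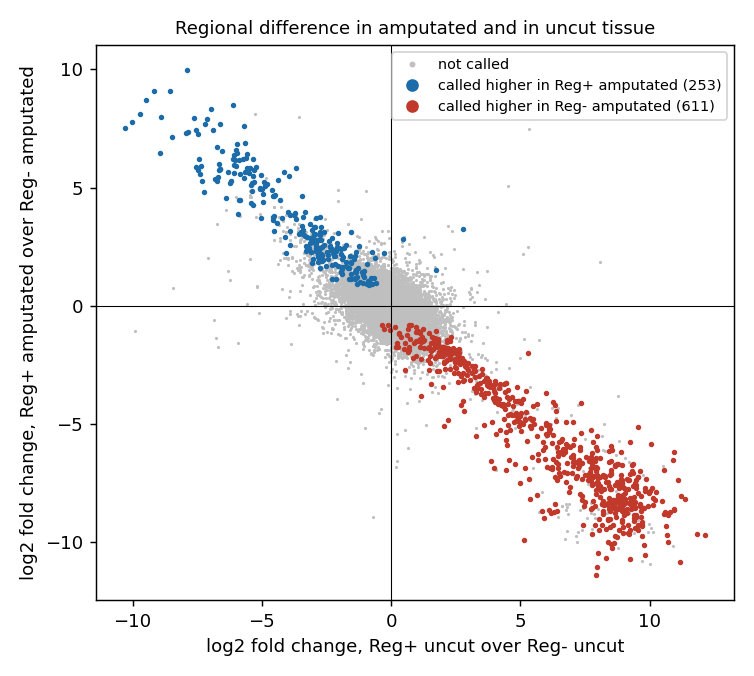
Log2 fold change of Reg+ over Reg- in uncut tissue (x axis) and in amputated tissue (y axis) for each tested contig, with contigs called in amputated tissue in colour. The 253 contigs called higher in Reg+ amputated tissue lie almost all left of 0 and the 611 called higher in Reg- almost all right of 0.

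The contigs added by leaving out Reg- amputated replicate 3 had fewer opposite calls in uncut tissue, in sets chosen partly by the values of replicate 3 and with no test of the difference. Of the 639 added in the Reg+ direction, 48 (7.51%) were called in the opposite direction in uncut tissue, against a background of 1.49%, and their median log2 fold change in uncut tissue was -0.90. Of the 238 added in the Reg- direction, 100 (42%) were called in the opposite direction, against 1.93%. Library medians of the 639 contigs averaged 4.84 ± 0.481 CPM for Reg+ amputated, against 2.64 ± 2.5 CPM for Reg- amputated tissue. For uncut tissue they averaged 1.92 ± 0.985 CPM in Reg+, against 3.55 ± 0.913 CPM in Reg- (SD, n = 3 each).

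Few contigs differed between the regions in amputated tissue with the same sign in uncut tissue, namely 3 of 253 and 4 of 611, where 69.5% of all contigs had opposite signs, and none of the 7 was called in uncut tissue. They were picked out after their values were seen. A contig of 565 nt came nearest to a regional difference of one direction, averaging 6.27 CPM for Reg+ amputated against 2.31 CPM for Reg- amputated tissue, and 4.26 CPM for Reg+ uncut against 1.26 CPM for Reg- uncut tissue (n = 3 each). Its adjusted p was 0.0401 in amputated and 0.0512 in uncut tissue by edgeR. The 4 contigs lower in Reg+ amputated tissue were low in that group alone. The longest, of 2868 nt, had 204, 168 and 196 CPM in Reg+ amputated and 315, 342 and 386 CPM in Reg- amputated libraries (log2 fold change -0.82, adjusted p 0.0264 by edgeR). In uncut tissue it stood at 594, 292 and 430 CPM in Reg+ and at 371, 448 and 574 CPM in Reg-, all above the Reg+ amputated libraries. The difference between the uncut regions for this contig had an adjusted p of 0.811.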

How the data were processed

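Per the labels' protocols, RNA from pools of 3 worms kept at 18 °C was made into TruSeq libraries and sequenced on an Illumina HiSeq 2000 for 100 cycles. Each deposited file has, per the file headers, contig length, a total and a unique read count, and RPKM. The authors assembled the transcriptome de novo, per the series' design text. The RPKM deposited equal total reads per contig length and column total to within 0.0078. The aligner and counting tool were not given in the sources used here.

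Total reads were tested with edgeR 4.0.16 in R 4.3.3 (TMM scaling, quasi-likelihood test, group means) on the 6 amputated libraries, on 5 of them without Reg- amputated replicate 3, and on the 6 uncut libraries. The interaction was tested in all 12. DESeq2 1.42.0 was an alternative. Contigs needed at least 10 reads in 3 of the 6 amputated libraries; 2 of them had no uncut read. Contigs were called at 0.05 after Benjamini-Hochberg adjustment (two-sided tests), and fold changes are Reg+ over Reg-. The standard error is the log2 fold change divided by the square root of F. CPM used all reads of a library, and log2 CPM a prior count of 2. Model fits were tested on simulated data.

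Named contigs are, per direction, the largest fold change and the highest mean RPKM among called contigs with at least 1 CPM on average and no overlap of the groups. Comparison, members and rules were chosen with earlier results of these data known. No replicate was a repeat of another, since chi-square per degree of freedom was 9.68 or more in every pair.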

Additional observations from a re-analysis of the deposited data

Results flagged for a closer look

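Groups of 3 libraries are too small to look for one outlying value by its gap to the others. The regional difference was not the same in amputated and in uncut tissue: the test of the difference itself, an interaction of region and amputation over all 12 libraries, was called for 4629 contigs, 8.03% of those tested (edgeR quasi-likelihood test). Of these, 1825 had a greater Reg+ over Reg- ratio in amputated tissue and 2804 a smaller one. The count was 2900 without Reg+ amputated replicate 1, 2883 without Reg+ amputated replicate 2, 12493 without Reg- amputated replicate 3, 3058 without Reg+ uncut replicate 1 and 2819 without Reg- uncut replicate 3. Of the contigs called between the amputated regions, 246 of 253 and 605 of 611 had a called interaction, which shares the amputated libraries with that call.

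The log2 interaction was 17.88 for contig109086 (adjusted p 2.24e-06 by edgeR) and 5.50 for contig147544 (adjusted p 2.56e-07). It was -19.27 for contig104408 (adjusted p 2.03e-05) and -10.20 for contig148685 (adjusted p 6.11e-07). For contig109086 and contig104408 the size is set partly by the fit's prior count, since 2 groups have few or no reads.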

How the results depend on the processing

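With all 6 amputated libraries, 864 contigs were called, and 2048 with DESeq2, 2108 with the uncut groups in the same fit and 505 with the replicate number as a block. Size factors of another kind (RLE), uniquely assigned reads, no filter on low counts and filterByExpr gave 861, 859, 1130 and 869. No contig of the 864 was called in the opposite direction under any of these settings or with a library left out. Leaving out one library gave 343 to 1704 calls. Without Reg- amputated replicate 3, the 1704 contigs became 6790 with DESeq2 (69.9% higher in Reg+), 7989 with no filter (69%), 5856 with the uncut groups in the fit (52%) and 187 with the replicate block (31%), against 50.9%, and 346 to 8845 with a further library left out. Where that left 1 Reg- amputated library, it was assumed to vary like the Reg+ amputated ones. In the block fit without Reg- amputated replicate 3, Reg+ amputated replicate 3 had no Reg- amputated library of its number. The 187 calls therefore rest on numbers 1 and 2. In uncut tissue the 1972 calls became 3235 with DESeq2 and 3015 with the replicate block, and 1231 to 5343 with 1 library left out. The uncut block compares the regions only at numbers 1 and 3, which both have, so its count does not rest on all 6 uncut libraries. The interaction was called for 2819 to 12493 contigs with one library left out. Contigs called in opposite directions numbered 1372 by DESeq2 (with 5 called in the same direction) and 1262 in one fit of all libraries (with 2), against 799 and 0, and 339 to 921 with one library left out. Contigs present in one group and absent from the other numbered 92, or 18 at 50 reads, 286 with up to 2 reads as absent, and 95 to 138 with one library left out, settings chosen after seeing the data. The causes of these shifts were not tested.

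Whether the replicate numbers pair the libraries was not settled. Deviations from the group means correlated at -0.116, 0.198 and 0.102 for numbers 1, 2 and 3. Reg+ amputated replicates 2 and 3 each correlated best with the Reg- amputated library of their own number. Reg+ amputated replicate 1 correlated best with Reg- amputated replicate 3 (0.159). With the block, contig104408 had a log2 fold change of -11.31, against -11.38 without it, and an adjusted p of 0.0637 by edgeR (range over its other settings 2.35e-15 to 0.031), while the other named contigs kept their calls under every setting run. RLE gave 45.1% higher in Reg+ without Reg- amputated replicate 3. At a prior count of 0.5 or at least 10 CPM, each median place moved by less than the SD of the places in its group. That limit is wide for Reg- amputated libraries over contigs higher in Reg+, whose places lay far apart (-0.096, 0.166 and 0.968). Over contigs of at least 10 CPM, Reg- amputated replicate 1 moved there to -0.202 and replicate 3 to 0.860. At 24370500 to 31266924 reads per amputated library, a count of 0 allows up to 3 reads, so that absence means below that depth.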
